A study of Mus musculus with 1024 samples.

Results

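The 42 genes described here are the integrin subunits, the laminin chains and 4 further basement membrane and matrix genes of the mouse aorta. They were taken by symbol from the 24422 genes of the count table: 18 alpha and 9 beta subunits of integrins, 11 laminin chains, Fn1 (fibronectin), Hspg2 (perlecan), Nid1 and Nid2 (nidogens). Aortae of mice aged 3 months were digested, depleted of Cd45+ cells and sorted one cell per well as Cd31+ Cd45- or Cd31- Cd45- cells, and each well was sequenced with Smart-seq2, which copies polyadenylated RNA into full-length cDNA and amplifies it. The groups were WT and KO (amotl2 ec-/ec-), each with 2 sorts by the labels, called preparations here. The labels give every well, WT included, the strain text Amotl2flow/flow / Cdh5-RREert /ROSA26-EYFP. By the methods of the study this is a loxP-flanked amotl2 gene on a C57BL/6 background with a tamoxifen-inducible Cre driven by the Cdh5 promoter, so recombination is directed to endothelial cells, and with an EYFP reporter that recombination switches on. Mice were pooled in a preparation and are not named, so the preparation was the replicate.

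After a minimum of 20000 gene counts and 500 genes, 784 of 1024 wells remained, 676 of them Cd31+ and 108 Cd31-. They were added up by gate, genotype and preparation into 8 sums of 926398 to 94881185 counts, and no well is part of more than 1 sum. Values of the 4 sums of a gate are given below in the order WT preparation 1, WT preparation 2, KO preparation 1, KO preparation 2. EYFP stood at 2.38, 0.353, 113 and 85.5 counts per 1000000 gene counts (CPM) in Cd31+ sums and at 0 in all 4 Cd31- sums, and Amotl2 at 59.9, 94.0, 51.9 and 45.7 CPM in Cd31+ sums, counted over the whole gene and not over the deleted part. WT and KO cells of preparation 1 were sorted to different plates, and for that preparation an effect of the plate cannot be told apart from one of the genotype. Of the Cd31+ wells of WT preparation 1, 154 of 235 fell into a cluster whose leading genes included Cd74 and H2-Aa, of MHC class II antigen presentation, which held 0 of 50 wells of WT preparation 2 and 2 of 391 KO wells. Endothelial markers summed to between 13870 and 16769 CPM in Cd31+ sums and to at most 745 CPM in Cd31- sums, and 659 of 676 Cd31+ wells fell into endothelial clusters. The Cd31- wells were 70 smooth muscle-like, 37 fibroblast-like and 1 endothelial. Leukocyte markers summed to at most 11.8 CPM in any sum, with 2 of 7 at 0 throughout.

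Integrins are heterodimers of an alpha and a beta subunit that span the plasma membrane and tie the extracellular matrix to the actin cytoskeleton. The beta1 subunit pairs with many alpha subunits, whereas beta4 pairs with alpha6 alone and joins laminin to intermediate filaments. Laminins are trimers of an alpha, a beta and a gamma chain, and with nidogens, perlecan and collagen IV they form the basement membrane that lies under the endothelium and around each smooth muscle cell. Fibronectin is the ligand of alpha5beta1, alpha8beta1 and the alpha v integrins.

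Start regions of 4 genes that differed between the gates are shown for reference, because all 4 were lower in Cd31+ wells and one of them, Lama2, separated fibroblast-like from smooth muscle-like wells. Of the 42 genes, 26 had an entry in the RefSeq promoter table, among them 7 of the 14 that differed between the gates. Shown are the 250 bases before the RefSeq start, 5′ to 3′ on the gene's strand, of those 4 of the 7 whose window does not touch an annotated exon of the gene itself (GRCm38.p6). The windows are chr2:12301945-12302194 on the minus strand for Itga8, chr2:83724147-83724396 on the plus strand for Itgav, chr16:33829415-33829664 on the plus strand for Itgb5 and chr10:27616943-27617192 on the minus strand for Lama2. Capitals mark matches to the GC box, GGGCGG on either strand, and to the CArG box, the site bound by the serum response factor, also searched on both strands. The 2 motifs do not overlap here.
Itga8: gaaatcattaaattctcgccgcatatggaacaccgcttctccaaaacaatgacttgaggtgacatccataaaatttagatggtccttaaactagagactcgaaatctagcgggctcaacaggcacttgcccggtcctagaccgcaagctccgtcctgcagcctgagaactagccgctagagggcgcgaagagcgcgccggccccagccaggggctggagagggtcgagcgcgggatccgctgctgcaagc
Itgav: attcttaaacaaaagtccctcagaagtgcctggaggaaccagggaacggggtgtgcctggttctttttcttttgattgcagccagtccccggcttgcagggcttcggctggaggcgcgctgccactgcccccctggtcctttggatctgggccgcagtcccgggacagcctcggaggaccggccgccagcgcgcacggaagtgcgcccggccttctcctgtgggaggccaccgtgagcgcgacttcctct
Itgb5: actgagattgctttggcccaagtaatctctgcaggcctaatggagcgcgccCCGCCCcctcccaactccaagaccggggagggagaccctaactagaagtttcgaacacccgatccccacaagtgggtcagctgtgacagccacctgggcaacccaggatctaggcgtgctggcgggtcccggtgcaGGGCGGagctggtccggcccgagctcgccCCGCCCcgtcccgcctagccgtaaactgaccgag
Lama2: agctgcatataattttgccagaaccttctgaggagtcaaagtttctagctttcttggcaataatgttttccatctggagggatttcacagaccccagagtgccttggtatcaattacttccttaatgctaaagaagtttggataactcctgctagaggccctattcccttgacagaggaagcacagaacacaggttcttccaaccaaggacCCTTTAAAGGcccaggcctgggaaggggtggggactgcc
Itgb5 held 3 GC boxes and Lama2 held 1 CArG box, while the windows of Itga8 and Itgav held neither. A GC box was found in 32.7% and a CArG box in 1.47% of the 32851 windows of the table, at least once. The window of Itga8 lies over an exon of E030013I19Rik, a neighbouring gene, and the window of Lama2 lies inside the annotated gene. A match is a description of the letters in this window, and no binding was measured.

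The comparison of Cd31+ with Cd31- wells asks which of these genes marked the endothelial gate. Of the 42 genes, 31 passed the filter on low counts. Of these, 2 were higher and 12 were lower in Cd31+ wells at an adjusted p under 0.05 (edgeR's quasi-likelihood test, 4 sums against 4). Over all 12729 genes tested, 9.79% were higher and 9.25% were lower. The median log2 fold change of the 31 was -1.04, against 0.15 over all genes tested. In sums of wells, fewer cells of a type and less RNA per cell cannot be told apart. The plot of levels by sample shows the values behind this comparison, and the plot of the gate difference shows its size and error.

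**Figure D1:**
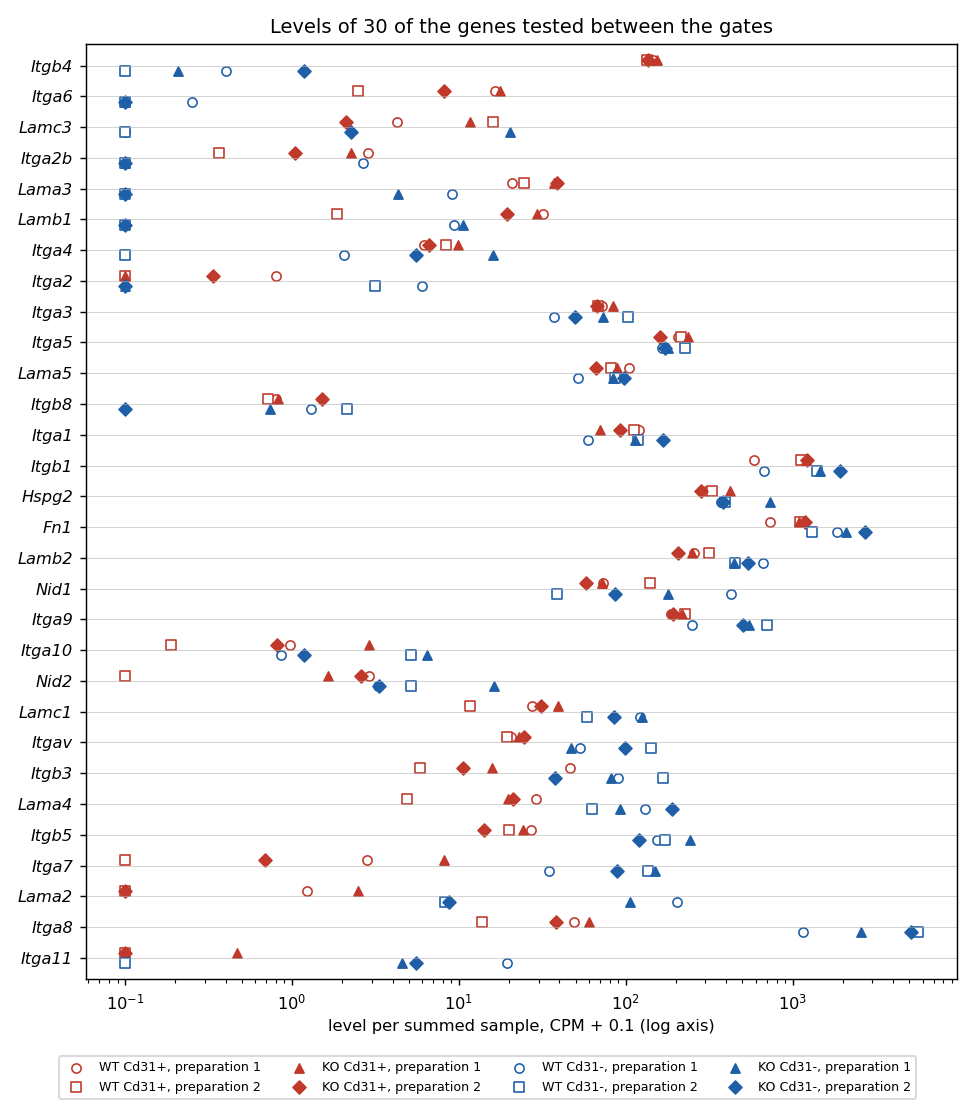
Levels of 30 of the 31 genes tested between the gates, in CPM + 0.1 on a log axis, with 1 point for each of the 8 sums (red, Cd31+; blue, Cd31-; open, WT; filled, KO) and genes ordered by the fitted gate difference. Itgb4 at the top sits between 134 and 153 CPM in Cd31+ sums and at 1.08 CPM or less in Cd31- sums, and Itga8 near the bottom shows the opposite order.

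**Figure D2:**
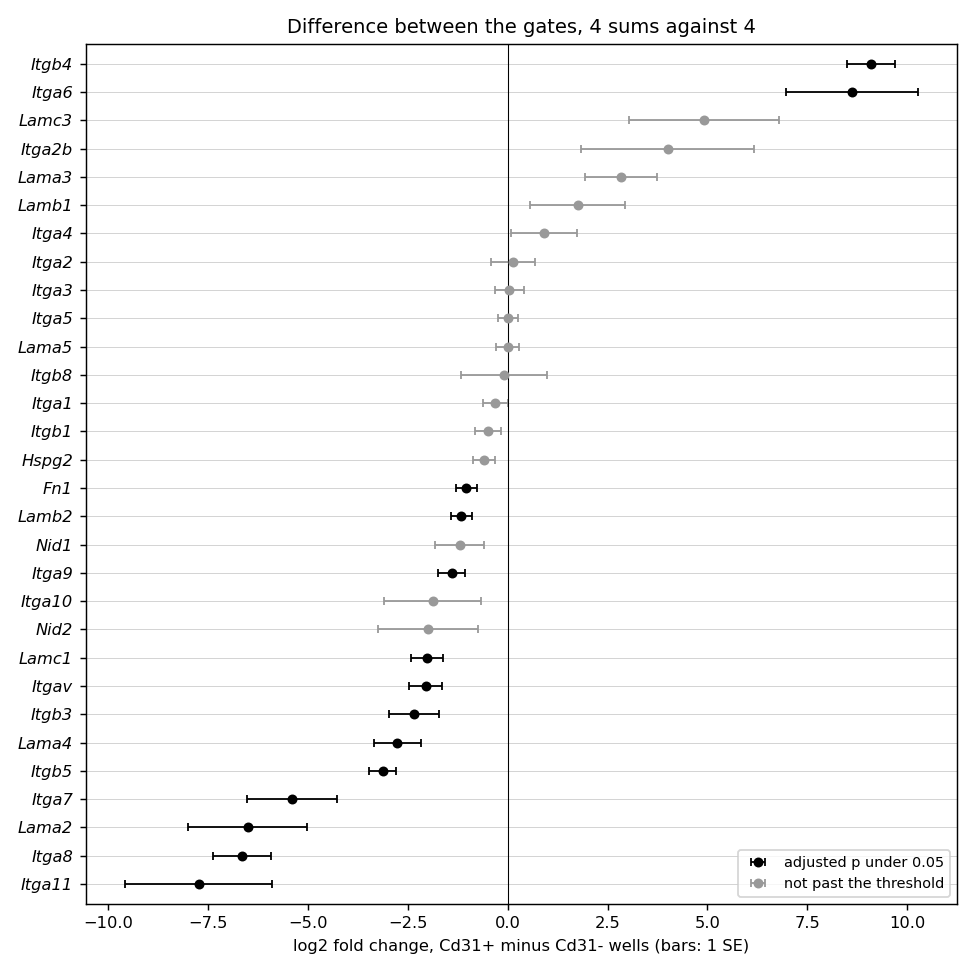
Fitted log2 fold change of Cd31+ minus Cd31- wells for the same 30 genes, with bars of 1 SE from edgeR over 4 sums against 4. Black points, 2 to the right and 12 to the left of 0, have an adjusted p under 0.05.

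Among the alpha subunits, Itga8, the partner of beta1 in vascular smooth muscle, stood furthest apart in CPM. Itga6 and Itga11 had fitted log2 fold changes of larger size. Itga8 was at 48.8, 13.6, 59.7 and 37.9 CPM in Cd31+ sums and at 1159, 5619, 2553 and 5147 CPM in Cd31- sums. The groups did not overlap, and the log2 fold change was -6.65 ± 0.72 (SE, adjusted p = 0.000495). Of the Itga8 counts of the Cd31+ sums, 83.2% came from the 17 wells that fell outside the endothelial clusters, and the other 659 wells together held 9.0 CPM. With these 17 wells left out of the Cd31+ sums and the 1 endothelial well out of the Cd31- sums, the log2 fold change was -10.39.

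Itga7, the muscle laminin receptor subunit, followed the same order with 2.7, 0, 8.06 and 0.590 CPM in Cd31+ sums against 34.7, 136, 150 and 88.5 CPM in Cd31- sums. Its log2 fold change was -5.40 ± 1.12 (SE, adjusted p = 0.0107), and 74.4% of its Cd31+ counts came from the 17 wells outside the endothelial clusters. Itga11, a collagen receptor subunit of fibroblasts, was at 0, 0, 0.369 and 0 CPM in Cd31+ sums and at 19.3, 0, 4.45 and 5.40 CPM in Cd31- sums. The groups overlapped at 0, with WT preparation 2 at 0 in both gates, and the log2 fold change was -7.73 ± 1.84 (SE, adjusted p = 0.0236). A single well gave 80.5% and 64.3% of the Itga11 counts in the Cd31- sums of WT and KO preparation 1.

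Itga9, a subunit that with beta1 binds tenascin and fibronectin, was well above 0 in both gates. It was at 187, 227, 215 and 191 CPM in Cd31+ sums and at 248, 700, 543 and 504 CPM in Cd31- sums. The groups did not overlap, and the log2 fold change was -1.40 ± 0.34 (SE, adjusted p = 0.0215). Itgav, which forms receptors for vitronectin and fibronectin, was at 20.4, 19.4, 22.7 and 24.3 CPM in Cd31+ sums and at 53.1, 141, 47.0 and 98.2 CPM in Cd31- sums. Every Cd31- sum was above every Cd31+ sum (log2 fold change -2.06 ± 0.42, SE, adjusted p = 0.0107).

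The partners of Itgav moved the same way. Itgb5 was at 26.8, 19.9, 24.2 and 13.9 CPM in Cd31+ sums and at 154, 171, 241 and 120 CPM in Cd31- sums (log2 fold change -3.13 ± 0.34, SE, adjusted p = 0.000516), with no overlap. Itgb3 was at 46.4, 5.74, 15.7 and 10.5 CPM in Cd31+ sums and at 89.5, 167, 81.6 and 37.8 CPM in Cd31- sums, so the WT Cd31+ sum of preparation 1 lay above the KO Cd31- sum of preparation 2. Its log2 fold change was -2.35 ± 0.63 (SE, adjusted p = 0.0306).

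The 2 genes higher in Cd31+ wells were Itgb4 and Itga6, which encode the partners of the laminin receptor alpha6beta4. Itgb4 was at 145, 134, 153 and 136 CPM in Cd31+ sums and at 0.301, 0, 0.106 and 1.08 CPM in Cd31- sums. Its log2 fold change was 9.10 ± 0.60 (SE, adjusted p = 0.000139), the largest among the 31 genes. Itga6 was at 16.4, 2.38, 17.5 and 8.03 CPM in Cd31+ sums, 2414 counts in all, and at 1 count in all Cd31- sums (log2 fold change 8.61 ± 1.66, SE, adjusted p = 0.0101). The ratio of the pooled levels was 281, with an exact 95% counting interval of 50.3 to 11094. These 2 partners therefore shared a gate but not a level, and in every Cd31+ sum Itgb4 was above Itga6.

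In the same wells the pairing was one-sided. Of 659 endothelial Cd31+ wells, 528 (80.1%) held a count of Itgb4 and 60 (9.10%) a count of Itga6. Of the 60 wells with Itga6, 44 (73.3%) also held Itgb4, whereas 8.33% of the wells with Itgb4 held Itga6. With each well thinned to 20000 counts the shares were 64.8% for Itgb4, 6.83% for Itga6 and 4.70% for both. Among the 70 smooth muscle-like Cd31- wells, 2 (2.86%) held a count of Itgb4, at a median depth of 112506 counts against 159612 counts in the endothelial wells.

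Other subunits were well above 0 in both gates and did not pass the test, the common beta chain among them. Itgb1 was at 582, 1126, 1207 and 1212 CPM in Cd31+ sums and at 669, 1401, 1464 and 1928 CPM in Cd31- sums, with a log2 fold change of -0.50 ± 0.33 (SE, adjusted p = 0.353). Both gates of a genotype and preparation came from 1 cell suspension, and Itgb1 was lower in Cd31+ in 4 of 4 suspensions, with an adjusted p of 0.152 when the suspension was a block. In both gates the lowest Itgb1 value was that of WT preparation 1. Itga5, the fibronectin receptor subunit, was at 204, 213, 237 and 159 CPM and at 165, 227, 178 and 172 CPM in Cd31+ and Cd31- sums (log2 fold change 0.02 ± 0.25, SE, adjusted p = 0.978). Itga3 (log2 fold change 0.04 ± 0.36) and Itga1 (-0.31 ± 0.32), subunits of receptors for laminin and for collagen, also did not pass the test, at an adjusted p of 0.962 and 0.582. Itga1 ranged from 69.6 to 121 CPM in Cd31+ and from 58.9 to 166 CPM in Cd31- sums. Itga4, Itga10, Itga2, Itga2b and Itgb8 stayed at or below 15.9 CPM in every sum and did not pass the test.

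Of the 659 endothelial wells, 551 (83.6%) held counts of both Itga5 and Itgb1, 558 (84.7%) of Itga9 and Itgb1, 413 (62.7%) of Itga3 and Itgb1, and 406 (61.6%) of Itga1 and Itgb1. All 70 smooth muscle-like wells held both Itga8 and Itgb1. Itgav and Itgb5 were found together in 7.44% of endothelial, 64.3% of smooth muscle-like and 54.1% of fibroblast-like wells, and after thinning in 2.43%, 35.7% and 27.0%. A well without a count can hold RNA that was not detectable at this depth.

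Laminin chains are given by their place in the trimer. Of the alpha chains, Lama5 did not pass the test between the gates, with 104, 81.8, 89.0 and 66.1 CPM in Cd31+ and 51.5, 86.0, 83.3 and 97.2 CPM in Cd31- sums (log2 fold change 0.00 ± 0.29, SE, adjusted p = 1.00). Lama4, the other alpha chain of vessel laminins, was lower in Cd31+ wells, at 28.7, 4.76, 19.4 and 21 CPM against 130, 62.8, 91.8 and 188 CPM. The log2 fold change of Lama4 was -2.76 ± 0.58 (SE, adjusted p = 0.0120), with no overlap. Lama2, the alpha chain of the laminin around muscle fibres and of connective tissue, was at 1.13, 0, 2.37 and 0 CPM against 204, 8.10, 106 and 8.64 CPM (log2 fold change -6.51 ± 1.49, SE, adjusted p = 0.0167). Of the Lama2 counts in the Cd31+ sums, 99.3% came from wells outside the endothelial clusters.

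Lama3, the alpha chain of epithelial laminins, had the opposite order. It was at 20.6, 24.4, 36.9 and 38.4 CPM in Cd31+ sums and at 9.04, 0, 4.24 and 0 CPM in Cd31- sums. The groups did not overlap and Lama3 was higher in Cd31+ in 4 of 4 cell suspensions, yet its log2 fold change of 2.83 ± 0.90 did not pass the test (SE, adjusted p = 0.0585). Its counts in the Cd31- sums came from 3 of 108 wells. DESeq2 gave 2.89 with an adjusted p of 0.00565.

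Among beta and gamma chains, Lamb2 was lower in Cd31+ wells, at 257, 315, 249 and 205 CPM against 664, 451, 444 and 541 CPM (log2 fold change -1.16 ± 0.25, SE, adjusted p = 0.0137). Lamc1, the gamma chain of nearly all vessel laminins, was at 27.5, 11.6, 39.1 and 30.8 CPM against 122, 58.7, 125 and 85.3 CPM (log2 fold change -2.01 ± 0.40, SE, adjusted p = 0.00934). Neither gene's groups overlapped. Lamb1 was at 31.9, 1.76, 29.2 and 19.2 CPM in Cd31+ and at 9.19, 0, 10.5 and 0 CPM in Cd31- sums (log2 fold change 1.75 ± 1.19, SE, adjusted p = 0.369). Lamc3 reached 15.8 CPM in the WT Cd31+ sum of preparation 2, where a single well gave 50.3% of its counts.

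Of the remaining matrix genes, Fn1 was at 729, 1106, 1096 and 1189 CPM in Cd31+ and at 1831, 1304, 2083 and 2700 CPM in Cd31- sums, with no overlap and a log2 fold change of -1.04 ± 0.26 (SE, adjusted p = 0.0258). Hspg2 was at 303, 330, 419 and 282 CPM against 373, 391, 734 and 380 CPM and did not pass the test (log2 fold change -0.58 ± 0.28, SE, adjusted p = 0.190), though it was lower in Cd31+ in 4 of 4 suspensions (adjusted p = 0.139 with the suspension as a block). Nid1 was at 73.0, 140, 72.1 and 57.4 CPM against 429, 38.5, 178 and 86.4 CPM, so that the Cd31- sums spanned the Cd31+ values (log2 fold change -1.20 ± 0.62, SE, adjusted p = 0.230). Nid2 stayed at or below 16.2 CPM.

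Leaving out each of the 8 sums in turn kept Itga6, Itga7, Itga8, Itgb4, Itgb5, Lama4 and Lamc1 past the threshold in all 8 fits, in which the sum left alone in its group was assumed to vary like the other groups. Itgav was lost without KO Cd31+ preparation 1 (adjusted p = 0.0516). The other 6 calls were lost in more than 1 fit. Lama2 was lost in 3 fits (without WT Cd31+ preparation 2, WT Cd31- preparation 1 or KO Cd31- preparation 1, adjusted p up to 0.0667), Itgb3 in 4 (without either KO Cd31+ sum, WT Cd31- preparation 2 or KO Cd31- preparation 1, up to 0.102) and Lamb2 in 4 (without any one Cd31+ sum, up to 0.0854), though its log2 fold change stayed between -1.28 and -0.98 in all alternatives. Itga9 was lost in 5 (without any one Cd31+ sum or KO Cd31- preparation 1, up to 0.0887), Itga11 in 5 (without any one Cd31+ sum or WT Cd31- preparation 1, from 0.0601 to 1.00) and Fn1 in 6 (without any one Cd31+ sum or either KO Cd31- sum, up to 0.128). The -1.28 of Lamb2 came from the fit against fibroblast-like wells, in which single wells stand as sums, so no statement rests on that end of the range. With the cell suspension (genotype and preparation) as a block 11 genes in place of 12 were lower, Itga11 being lost. Lama3 passed the test without WT Cd31- preparation 1 (adjusted p = 0.0108), without WT Cd31- preparation 2 (0.0489) or without KO Cd31- preparation 1 (0.0480), and Nid1 without WT Cd31- preparation 2 (log2 fold change -1.63, adjusted p = 0.0133).

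The 11 genes that did not pass the filter were at or near 0 throughout. Itgad, Itgam, Itgax, Itgb2, Itgb6 and Lama1 had 0 counts in all 784 wells, and Itgae, Itgal, Itgb2l, Itgb7 and Lamb3 had 83 counts or fewer. Itgam, Itgax, Itgad, Itgal and Itgb2 encode the leukocyte integrins, and the sort had removed Cd45+ cells.

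Levels between genes were compared after division by the length of the merged exons and rescaling to 1000000 per sum. On this scale Itgb1 led the Cd31+ sums, at 923 ± 286 (SD, n = 4), followed by Fn1 at 321 ± 69.5, Lamb2 at 153 ± 26.9, Itga5 at 150 ± 26, Itga9 at 96.8 ± 10.9, Hspg2 at 84.9 ± 17.4 and Itgb4 at 73.6 ± 5.63. Lamb2 and Itga5 differed by less than the larger SD of the pair, as did Itga9 and Hspg2, and Hspg2 and Itgb4. In the Cd31- sums the order of length-scaled levels was Itga8 at 1857 ± 1083 (SD, n = 4), Itgb1 at 1268 ± 497, Fn1 at 642 ± 197, Lamb2 at 326 ± 61.3, Itga9 at 245 ± 91.2 and Itgb5 at 182 ± 55.8, where Itga8 and Itgb1, Lamb2 and Itga9, and Itga9 and Itgb5 lay within the larger SD of each pair.

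Itga5 made 42.8%, 45.3%, 44.0% and 38.9% of the length-scaled alpha subunit total in Cd31+ sums, and Itga8 made 63.6%, 79.8%, 69.5% and 83.3% in Cd31- sums. Among laminin alpha chains, Lama5 made 52.2% to 73.0% of the total in Cd31+ sums and Lama3 14.2% to 32.1%, while Lama4 made 34.8% to 63.2% in Cd31- sums. The leading alpha chain there differed between sums, being Lama2 in WT preparation 1 (43.6%), Lama5 in WT preparation 2 (57%) and Lama4 in KO preparations 1 and 2 (34.8% and 63.2%). The chain totals were uneven in both gates. Beta chains came to 161 ± 24.2 (SD, n = 4) in Cd31+ sums, against 43.1 ± 6.10 for alpha and 17.1 ± 5.14 for gamma chains on the same scale, and to 328 ± 61.9, 83.5 ± 24.6 and 49.0 ± 19.6 in Cd31- sums. These are RNA levels, and no protein or assembled trimer was measured.

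The Cd31- gate mixed smooth muscle-like and fibroblast-like wells in unequal shares. Fibroblast-like wells were 26 of 42 in WT preparation 1, 9 of 40 in KO preparation 1, 1 of 12 in WT preparation 2 and 1 of 14 in KO preparation 2. The plot of levels by class shows that the genes fell to different sides. Genes described here were left out of the clustering, so the classes did not use them. The classes were otherwise made from the same cells, and their differences are given as values with no test.

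**Figure D3:**
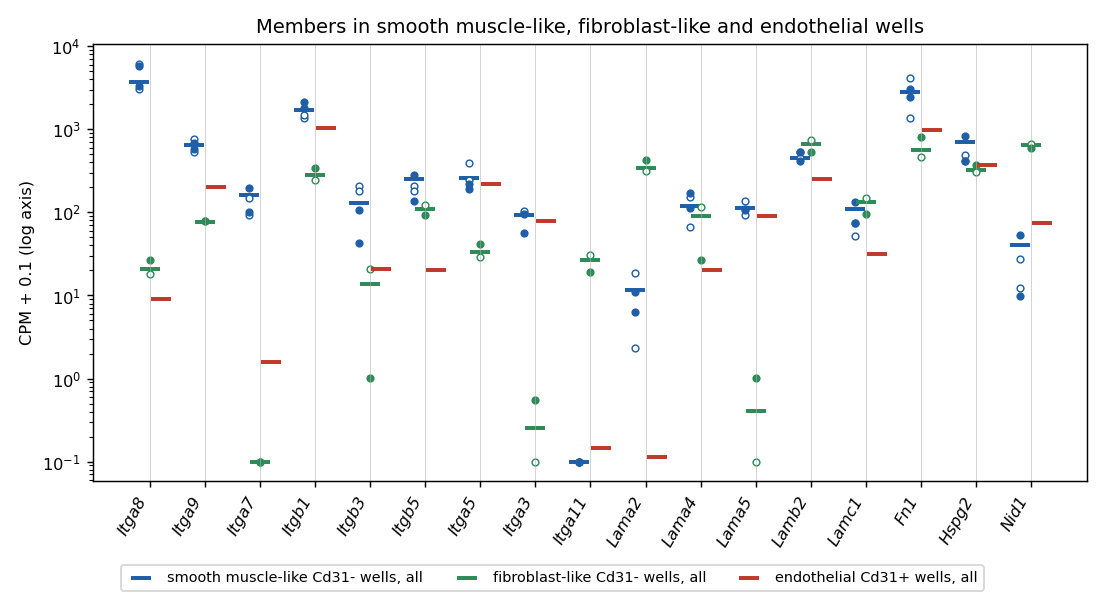
Levels of 17 of the genes in CPM + 0.1 on a log axis, by class of well: wide marks pool all wells of a class, and points are single sums (open, WT; filled, KO) with at least 5 wells of that class. Itga8, Itga7, Itga3 and Lama5 sit high in smooth muscle-like and low in fibroblast-like wells, and Lama2, Nid1 and Itga11 show the opposite order.

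Itga8 was at 3074, 6144, 3313 and 5857 CPM in the smooth muscle-like wells of the 4 sums, and at 18.3 and 26.6 CPM in the fibroblast-like wells of WT and KO preparation 1. Lama2 was at 18.6, 2.21, 11 and 6.14 CPM in smooth muscle-like wells, and at 314 and 423 CPM in fibroblast-like wells of WT and KO preparation 1. The share of wells with a count of Lama2 was 94.6% of 37 fibroblast-like and 18.6% of 70 smooth muscle-like wells. For Itga8 these shares were 32.4% and 100%.

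Nid1, which bridges laminin to collagen IV, was at 668 and 595 CPM in the fibroblast-like wells of WT and KO preparation 1 and at 27.0, 12.2, 52.7 and 9.83 CPM in smooth muscle-like wells. Itga11 was at 30.8 and 19.2 CPM in these fibroblast-like wells and had 0 counts in smooth muscle-like wells. A count of Itga11 was found in 27.0% of the 37 fibroblast-like wells. In WT and KO preparation 1 a single well gave 80.5% and 64.3% of these counts. Lama5 was at 138, 94.1, 108 and 111 CPM in smooth muscle-like wells, and at 0 and 0.916 CPM in fibroblast-like wells of WT and KO preparation 1. Itga3 was at 98.5, 103, 95 and 56.5 CPM in smooth muscle-like wells and at 0 and 0.458 CPM in the same fibroblast-like wells. Fn1 was at 4124, 1381, 2469 and 3043 CPM against 465 and 798 CPM, and Itgb1 at 1375, 1486, 1803 and 2162 CPM against 248 and 339 CPM. Lamb2 was at 452 CPM in pooled smooth muscle-like and 669 CPM in pooled fibroblast-like wells, and Lamc1 at 111 and 132 CPM. In WT preparation 1 Lamb2 was at 528 and 745 CPM in these classes, and in KO preparation 1 at 418 and 534 CPM. Lamc1 changed order, with 75.1 and 150 CPM in WT preparation 1 and 134 and 95.7 CPM in KO preparation 1. For both preparation 2 sums the fibroblast-like class was a single well.

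Set against smooth muscle-like wells on their own, 4 of the genes were higher and 11 lower in the Cd31+ sums (14.7% and 9.18% of 12372 genes tested). Nid1 was then higher in Cd31+ wells (log2 fold change 1.63 ± 0.51, SE, adjusted p = 0.0468), as was Lamb1, which had 0 counts in smooth muscle-like wells (adjusted p = 0.00898), and Itgb1 was lower (log2 fold change -0.79 ± 0.22, SE, adjusted p = 0.0310). Itgb4 and Itga6 were again higher and Lama4 and Lamc1 again lower. Lama2 no longer passed the test (log2 fold change -3.56 ± 1.47, SE, adjusted p = 0.115). Itga11, with 0 counts in smooth muscle-like wells, was not tested.

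For fibroblast-like wells, with a single well in 2 of the 4 sums, levels are set beside those of the 659 endothelial Cd31+ wells as a description, over pooled wells. A fit of the Cd31+ sums against these sums called 9 genes higher and 5 lower (16.2% and 6.42% of 12045 genes tested), and no statement here rests on it because single wells stand in it as sums. Nid1 was at 74.5 CPM in endothelial and 643 CPM in fibroblast-like wells. Genes of the opposite order were Itgb1, at 1029 and 281 CPM, Itga5, at 220 and 33.5 CPM, Lama5, at 90.2 and 0.308 CPM, and Itga3, at 79.2 and 0.154 CPM. Lama3 was at 32.2 and 0 CPM. Fn1 (996 and 572 CPM), Itga9 (203 and 76.5 CPM) and Itgb3 (20.8 and 13.5 CPM) were lower in Cd31+ wells against the whole Cd31- gate but stood higher in endothelial than in fibroblast-like wells. By sum, endothelial Itgb3 was at 44.7, 5.75, 13.5 and 10.4 CPM, so WT preparation 1 raised the pooled value. Itgb3 was at 20.7 and 0.916 CPM in fibroblast-like wells of WT and KO preparation 1, and 4 of the 37 wells held a count. Itga8 stood lower in endothelial wells, at 9.0 against 20.6 CPM, and Itga7 was at 1.49 against 0 CPM.

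Within the Cd31+ gate the endothelial clusters also differed in these genes, as the plot by cluster shows. The cluster led by Fabp4 and Cd36, genes of fatty acid transport, held 33 wells, 19 from WT preparation 1, 0 from WT preparation 2, 11 from KO preparation 1 and 3 from KO preparation 2. Itga6 was at 154 and 462 CPM in these wells of WT and KO preparation 1, and 29 of the 33 wells (87.9%) held a count. A single well gave 55.6% of the Itga6 counts in these KO wells, 23.4% in these WT wells and 39.3% over the 33 wells. In the 248 wells led by Frzb and Thbs1, Itga6 was at 0.881 CPM, in the 199 led by Gkn3 and Nt5e at 2.26 CPM, in the 156 led by Cd74 and H2-Aa at 1.16 CPM and in the 23 led by Slc6a6 and Ssu2 at 72.5 CPM. The 33 wells thus gave 78.1% of the Itga6 counts of all 676 Cd31+ wells. WT preparation 2, with no such well, had the lowest Itga6, Lama4 and Lamb1 of the Cd31+ sums. It also had the highest Nid1, at 140 CPM, where a single well gave 48.0% of the Nid1 counts. Nid1 was high in the Fabp4 and Cd36 cluster as well. A link between cluster make-up and these levels was not tested.

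**Figure D4:**
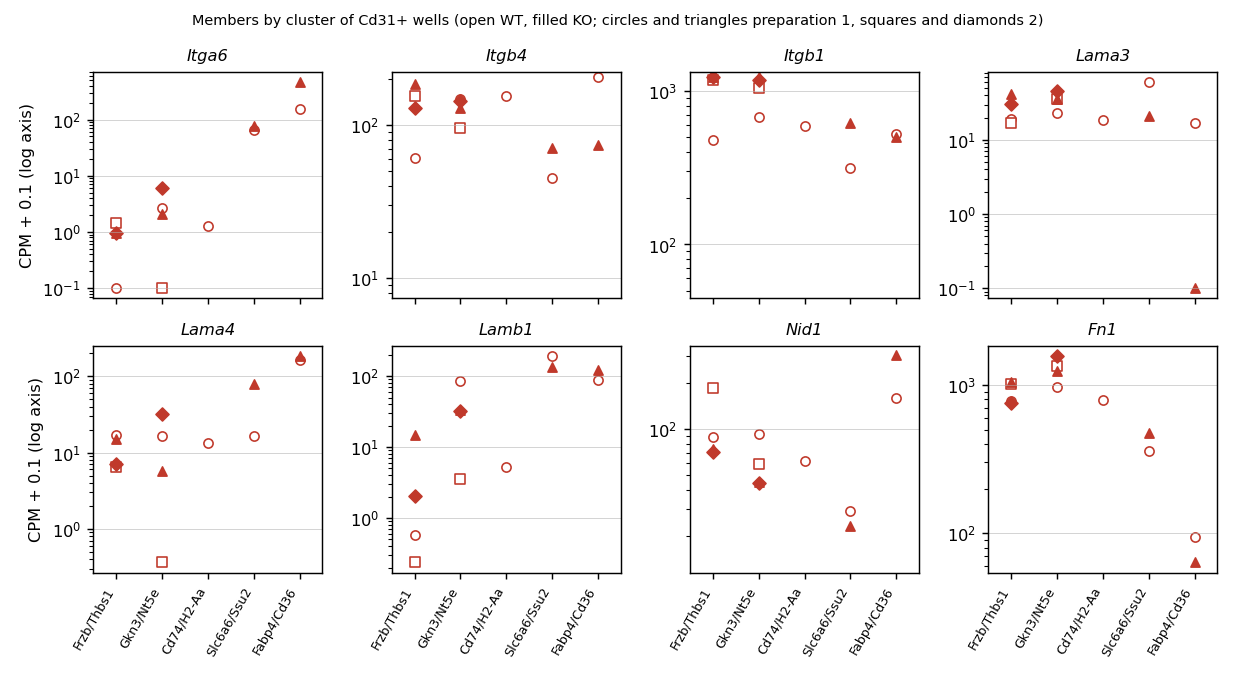
Levels of 8 of the genes in CPM + 0.1 on a log axis by cluster of Cd31+ wells, named by 2 leading genes, with 1 point for each sum that had at least 9 wells in the cluster. Itga6, Lama4 and Nid1 are highest and Fn1 is lowest in the Fabp4 and Cd36 cluster.

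In the same 33 wells Lama4 was at 169 CPM, Nid1 at 224 CPM and Lamb1 at 103 CPM, while Fn1 was at 77.7 CPM. In the Frzb and Thbs1 wells these levels were 13.7 CPM for Lama4, 86.3 CPM for Nid1, 12.1 CPM for Lamb1 and 1017 CPM for Fn1. Itgb4 did not follow Itga6, with 145 CPM in the Fabp4 and Cd36 wells and 175 CPM in the Frzb and Thbs1 wells. Median depths were 118017 and 174656 counts per well. The Slc6a6 and Ssu2 wells had the highest Lamb1, 146 CPM, and Itgb3, 138 CPM, where a single well gave 70.5% of the Itgb3 counts. Clusters were made from the same cells and differ in their make-up by preparation, so these values are a description.

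The comparison of KO with WT in Cd31+ wells asks whether the loss of endothelial AmotL2 went with a change in these genes. Of the 29 genes that passed the filter on these 4 sums, 0 passed the test, and over all 12702 genes tested 0% were called. Unadjusted p values under 0.05 numbered 0 among the 29 genes and 468 over all genes, and DESeq2 called 0 of these genes and 37 in all. The median log2 fold change of the 29 was 0.19, against 0.00 over all genes. In 16 of the 29 the difference had the same sign in both preparations, with 11 higher and 5 lower in KO. This count was not set against all genes tested, and no direction is read from it.

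**Figure D5:**
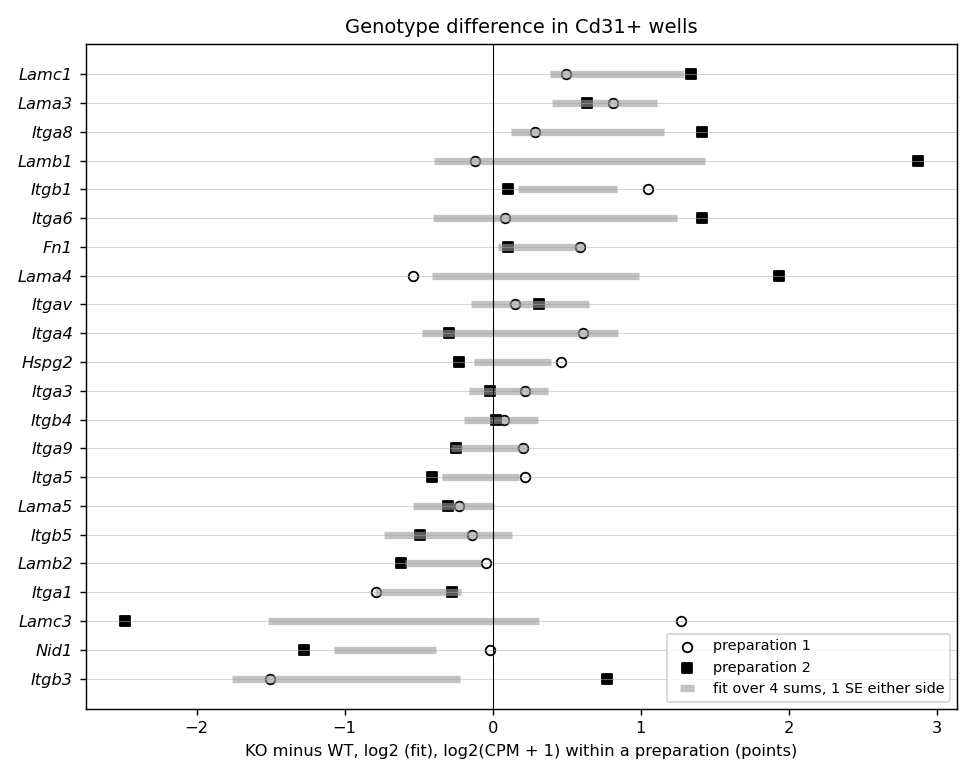
KO minus WT in Cd31+ wells on a log2 scale for the genes whose WT and KO mean CPM add up to 10 or more: grey bars are the fit over 4 sums with 1 SE either side, and points are log2(CPM + 1) differences within a preparation (open circle, preparation 1; filled square, preparation 2). The points of Lamb1, Lama4, Lamc3 and Itgb3 lie on opposite sides of 0.

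Lama3 had the smallest p among genes with the same sign in both preparations. From the values above, KO was higher than WT by 0.81 in preparation 1 and by 0.63 in preparation 2 on the log2(CPM + 1) scale, and the fitted log2 fold change was 0.75 ± 0.35 (SE, p = 0.0612, adjusted p = 1.00). The share of wells with a count of Lama3 was 24.7% in WT and 29.1% in KO of preparation 1, and 46.0% in WT and 42.7% in KO of preparation 2. With wells thinned to 20000 counts it was 11.9% and 19.5%, and 18% and 25.8%.

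Nid1 (log2 fold change -0.73 ± 0.35, SE, p = 0.0649) and Lamc1 (0.84 ± 0.45, p = 0.0959) came next, each with an adjusted p of 1.00. For Nid1 the preparations were uneven, with KO minus WT at -0.02 in preparation 1 and -1.28 in preparation 2. A single well gave 48.0% of the Nid1 counts in the WT Cd31+ sum of preparation 2. Lamc1 was higher in KO by 0.50 and 1.34. Itga1 was at -0.50 ± 0.29 (p = 0.118), Itgb1 at 0.50 ± 0.34 (p = 0.167) and Lamb2 at -0.33 ± 0.26 (p = 0.226). For Itgb1 the WT sum of preparation 1, at 582 CPM, stood below the other 3, at 1126 to 1212 CPM. By cluster, Itgb1 was at 483 CPM in the Frzb and Thbs1 wells and 679 CPM in the Gkn3 and Nt5e wells of that sum. In these wells of the other 3 sums Itgb1 was at 1041 to 1246 CPM. A link between cluster make-up and this level was not tested, and for preparation 1 plate and genotype cannot be told apart.

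Itgb4, the gene with the largest gate difference, was nearly level between genotypes, with KO minus WT at 0.08 and 0.02 in the preparations and a fitted log2 fold change of 0.06 ± 0.25 (SE, p = 0.822). The preparations lay furthest apart for Lamc3, at 1.27 and -2.48, and for Lamb1, at -0.12 and 2.87. Without the WT sum of preparation 1, and with the lone WT sum assumed to vary like the KO sums, Lamb1 (log2 fold change 3.75, adjusted p = 2.87e-05), Itga8 (1.81, adjusted p = 0.00621) and Nid1 (-1.14, adjusted p = 0.0153) passed the test. Without the WT sum of preparation 2 it was Itgb3 (-1.80, adjusted p = 0.00797). The genes called thus changed with the WT sum that was left out. Wells outside the endothelial clusters gave 100% of the Itga8 counts in the Cd31+ sum of WT preparation 2. They gave 77.7% in that of KO preparation 1 and 99.7% in that of KO preparation 2. For Nid1, a single well gave 48.0% of the counts of WT preparation 2.

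In Cd31- wells 0 of the 31 genes passed the test of KO against WT, as did 0% of all 12729 genes, with an unadjusted p under 0.05 for 2 of the 31 and 1130 of all. Here genotype moved with the share of fibroblast-like wells, 61.9% in WT and 22.5% in KO of preparation 1. With the smooth muscle-like wells alone, 0 of the 28 genes tested passed the test, and 0 of all 12372. Lamc3 had the smallest p among genes with the same sign in both preparations. It was at 0 in both WT sums and at 20.2 and 2.16 CPM in the KO sums, where a single well gave 56.5% and 100% of its counts (unadjusted p = 0.00796, adjusted p = 0.518). DESeq2 called this gene (adjusted p = 0.0303). Itga4 was at 1.96, 0, 15.9 and 5.40 CPM (adjusted p = 0.538). A single well gave 100% of the Itga4 counts in WT preparation 1, and 74% and 80% in KO preparations 1 and 2. Fn1 (log2 fold change 0.65 ± 0.37, adjusted p = 0.666), Itgb1 (0.75 ± 0.47, adjusted p = 0.696) and Itga1 (0.71 ± 0.46, adjusted p = 0.720) were higher in KO in both preparations without passing the test. Itga2 was at 5.88, 3.04, 0 and 0 CPM (adjusted p = 0.589), and a single well gave 87.2% and 100% of its counts in the WT sums.

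The genotype difference did not pass the test of a difference between the gates for any of the 31 genes (interaction term, 0% of 12729 genes called, unadjusted p under 0.05 for 1 of the 31 and 657 of all, DESeq2 0 of the 31 and 46 of all). The gene with an unadjusted p under 0.05 was Lamc3 (p = 0.0119, adjusted p = 0.955).

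A list of 55 further genes of integrin linkage and of the basement membrane was set beside these. Of the 52 that passed the filter, 8 were higher and 22 lower in Cd31+ than in Cd31- wells, against 9.79% and 9.25% of all genes. Their median log2 fold change was -0.32. Among 25 linkage genes 4 were higher and 8 lower, and among 27 matrix genes and laminin receptors 4 were higher and 14 lower.

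Among matrix genes lower in Cd31+ wells the largest differences were those of Postn (periostin), at 21.6 and 1655 CPM (log2 fold change -6.93 ± 0.62, SE, adjusted p = 0.000268), Tnc (tenascin C, -6.86 ± 0.95), Col15a1 (-6.62 ± 0.73), Tnxb (-5.08 ± 0.51), Npnt (-4.33 ± 0.48), Col4a5 (-4.31 ± 0.54) and Col18a1 (-3.72 ± 0.42). Npnt encodes nephronectin, a ligand of alpha8beta1, and was at 58.5 CPM in Cd31+ and 1097 CPM in Cd31- sums (means, n = 4), the same order as Itga8. Of matrix genes higher in Cd31+ wells, Vwf, the von Willebrand factor of endothelial cells, was at 2832 and 4.68 CPM (log2 fold change 11.12 ± 1.23). In the linkage part, Fermt3 (kindlin-3) had 3869 counts in Cd31+ and 1 count in Cd31- sums, a ratio of 450.0 with an exact 95% counting interval of 80.7 to 17778. Parvb (beta-parvin) had 3970 counts against 0, and the exact 95% counting interval of the ratio began at 125. With 3 counts over the 4 Cd31- sums taken as the floor, the ratio was 154. For KO against WT 0 of the 52 passed the test in Cd31+ wells (unadjusted p under 0.05 for 3, DESeq2 1, against 468 and 37 of all 12702 genes) and 0 in Cd31- wells (unadjusted p under 0.05 for 2, DESeq2 1, against 1130 and 189 of all 12729 genes).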

How the data were processed

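Single cells of mouse aorta were sequenced with Smart-seq2, in which molecules carry no identifier, and intervals from its read counts cover counting error only. Per the labels, the authors used STAR 2.7.7a, Picard 2.22.0 and HTSeq 0.9.1 with GRCm38, duplicate reads were removed, and the deposited table gives raw read counts for each gene in each well. The annotation release is not given in the sources used here. Counting is not stated to use strand, so overlapping genes, such as Itga8 and its neighbour, are uncertain to that degree. Spike-ins (1.25% of all counts) and the 5 summary lines (46.9%) entered neither the totals nor any test.

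Wells had to hold 20000 counts on genes and 500 genes. They were clustered with Seurat 5.3.0 (2000 variable genes less the 24 that belong to the 42 genes or the further list, 30 dimensions, resolution 0.5), and a cluster was named where at least 3 markers of a list were found in at least 50% of its wells. No doublet caller was run. Sums per gate, genotype and preparation were tested with edgeR 4.0.16 (TMM, filterByExpr, quasi-likelihood, Benjamini-Hochberg adjusted p under 0.05) in R 4.3.3. The TMM factors were 0.926 to 1.08, and CPM are counts per 1000000 gene counts of a sum. KO and WT Cd31+ wells were fitted on 4 sums and the other comparisons on all 8. DESeq2 1.42.0 was the other count test. Exact binomial intervals (Clopper-Pearson) were at 95%. The labels number the sorts, called preparations here, and WT and KO share these numbers. Deviations of same-numbered sums correlated by 0.142 in Cd31+ and 0.0761 in Cd31- wells between genotypes and by 0.0635 and 0.0444 between gates. The labels do not say that mice were the same across a number, so p-values measure the spread between preparations. Both count tests were tested on simulated data. Lengths and coordinates came from GENCODE M21 (95.7% of symbols matched, all 42 genes included), and start regions from RefSeq. Named with a fold change were all genes past the threshold between gates, the 6 with the smallest p and the same sign in both preparations for KO against WT, and up to 10 of the further list by size. The genes and lists were chosen with earlier results of these data known. All columns of the table were mapped to a sample. The values of 1 of the 42 genes are not reported here, though it is part of counts and totals.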

Additional observations from a re-analysis of the deposited data

Results flagged for a closer look

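In 30 of the 31 genes tested, each gate has 4 sums, and a sum was set apart where its gap to the nearest other sum, as a share of the range, exceeded Dixon's 95% critical value for 4 values. This marked 8 of 60 groups, and chance alone marks about 1 in 20. For Itga2b and Itga6 in Cd31- and Itga11 in Cd31+ sums the other 3 sums were at 0, which fixes the mark, so that rate does not apply to them. Each group of 4 holds WT and KO sums. Itgb1 in the Cd31+ sum of WT preparation 1 was at 582 CPM, the lowest of the 4. Hspg2 (734 CPM), Lamc3 (20.2 CPM) and Nid2 (16.2 CPM) were each highest in the Cd31- sum of KO preparation 1, where a single well gave 11.4% of the Hspg2, 56.5% of the Lamc3 and 70.6% of the Nid2 counts. The Cd31- sum of WT preparation 1 was highest for Itga2b (2.56 CPM) and Itga6 (0.151 CPM, 1 count). The Cd31+ sum of KO preparation 2 was highest for Itgb8 (1.42 CPM). Itga11 in the Cd31+ sum of KO preparation 1 was at 0.369 CPM with the other 3 sums at 0.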

How the results depend on the processing

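The count of genes described here that differed between KO and WT in Cd31+ wells was 0 under all 9 settings that kept every sum, including the wells outside the Fabp4 and Cd36 cluster or outside the Cd74 and H2-Aa cluster, which were chosen after seeing the data, and was 0 to 3 with 1 sum left out. Over all genes the count moved from 0 to 104 with no filter, 37 with DESeq2, 4 with thinned wells, 1 with the preparation as a block, 1 with RLE factors and 1 with wells taken by cluster, and to 5 to 311 with 1 sum left out. Between the gates, 2 genes higher in Cd31+ became 4 with no filter, 1 with WT sums alone, 4 against smooth muscle-like and 9 against fibroblast-like wells, and 2 to 3 with 1 sum left out. The 12 lower became 2 with WT sums alone and 5 against fibroblast-like wells, and 6 to 12 with 1 sum left out. Of all genes, 2423 between the gates became 526 with WT sums alone and 1349 with KO sums alone, where fewer sums were fitted, 1964 with the replicate block, and 1355 to 2542 with 1 sum left out. In Cd31- wells 0 genes became 1 (Lamc3) with no filter and 1 with DESeq2, and stayed at 0 with 1 sum left out or with the block. Over all genes 0 became 218 and 189, and 0 to 48 with 1 sum left out. For the interaction 0 of all genes became 163 with no filter and 46 with DESeq2. Against fibroblast-like wells the gate difference reversed for Fn1 (1.02), Itga7 (8.64, with 0 counts in that class), Itga8 (1.01), Itga9 (1.74) and Itgb3 (2.07), on the log2 scale. In that class 2 of the 4 sums were single wells, so no statement rests on this fit. For Itga8 and Itga7, 83.2% and 74.4% of the Cd31+ counts came from wells outside the endothelial clusters, and in endothelial wells alone Itga8 was lower than in fibroblast-like wells (9.0 against 20.6 CPM). Among wells of 100000 counts or more Fn1, Itga6 and Itgb3 no longer passed the test between gates. The block changed no other call among these genes than that of Itga11. Resolution 0.8 in the clustering gave the same classes. Sums of 926398 and 988038 counts in Cd31- wells limit what could be seen of genes near 1 CPM.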
